A study of Mus musculus and Homo sapiens with 22 samples.

Results

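Malat1, Neat1 and Tug1 are 3 long noncoding RNAs grouped here as nuclear. Their binding by the protein Lin28A and the structure of Malat1 are described here. Lin28A sites were taken on the minus strand within the mm10 bounds of each gene, which are chromosome 19, 5795690 to 5802672, for Malat1, chromosome 19, 5824708 to 5845480, for Neat1, and chromosome 11, 3639785 to 3648814, for Tug1. These bounds held 16 of the 11285 Lin28A sites listed for Mettl3 knockout (KO) cells and 12 of the 10990 sites listed for Mettl3 wild-type (WT) cells. The 3 genes stand among 4839 genes with a site of their own, counted on either strand, in either list. For RNA structure, Malat1 was followed by its transcript identifiers, ENSMUST00000172812 in mouse and ENST00000534336 in human, and it was 1 of 3247 to 12060 transcripts in each mouse file and 1 of 3935 to 19295 in each human file.

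Malat1 is a very abundant RNA of nuclear speckles, the bodies where splicing factors collect. Neat1 is the scaffold of paraspeckles, a neighbouring kind of nuclear body, and its short and long isoforms share their 5′ end. Tug1 is a further long noncoding RNA, whose compartment was not followed here. Lin28A is an RNA-binding protein of stem cells, best known for binding let-7 precursors and many mRNAs. Mettl3 carries the catalytic activity of the complex that places N6-methyladenosine (m6A) on RNA, and Malat1 is a known carrier of that mark.

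Lin28A-bound RNA was mapped by irCLIP, a method that crosslinks protein to RNA with ultraviolet light and then pulls the protein down, in Mettl3 KO and Mettl3 WT V6.5 mouse embryonic stem (mES) cells. RNA structure was probed by icSHAPE, in which the reagent NAI-N3 modifies the 2′-hydroxyl of flexible nucleotides, so that a score near 1 marks a reactive nucleotide and 0 an unreactive nucleotide. Cells were either treated alive with the reagent (in vivo) or broken up first, their RNA being extracted, heat-denatured and folded again before treatment (in vitro). Chromatin, nucleoplasm and cytoplasm were taken from V6.5 mES cells and from the human embryonic kidney line HEK293. Each of the 14 groups with a file held 1 sample, so no test between samples was possible and values are given with no replicate error. The order of the levels below is therefore a description of these files. Mettl3 itself held 0 Lin28A sites in each list, so the lists give no check of the genotype labels. The 2 anti-GFP irCLIP controls and the 6 solvent-control (DMSO) icSHAPE samples were not analysed here. Kits for rRNA removal and sequencers were not the same for mES and HEK293 libraries, per the labels, so a difference between the lines and these steps cannot be told apart. Read depth was not given in the files. As a measure of their extent, the mES icSHAPE files held 1980997 to 12871282 scored nucleotides and the HEK293 files 911595 to 6437699.

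The 5′ end of mouse Malat1 is shown first, because it is the only stretch of the 3 RNAs for which both a sequence and nucleotide scores were at hand. The sequence is nucleotides 7 to 50 of Malat1, at chr19:5802623-5802666 on the minus strand of GRCm38.p6, from RefSeq. Capitals mark nucleotides whose icSHAPE score, averaged over the 3 mES compartments, was at least 0.2.
Malat1 in vivo: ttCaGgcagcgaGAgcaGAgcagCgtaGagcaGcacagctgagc
Malat1 in vitro: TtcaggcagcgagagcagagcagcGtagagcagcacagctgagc

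Of these 44 nucleotides, 9 reached 0.2 in vivo and 2 reached it in vitro, and no nucleotide did in both. Nucleotide 9, a C, scored 0.351 (chromatin), 0.414 (nucleoplasm) and 0.414 (cytoplasm) in vivo, against 0.026, 0.052 and 0.078 in vitro in the same order. Nucleotide 11, a G, scored 0.468, 0.417 and 0.426 in vivo, against 0.018, 0.027 and 0 in vitro. At both of these nucleotides, every in vivo value lay above every in vitro value. Nucleotide 31, a G, went the other way, with 0.041, 0.009 and 0 in vivo against 0.122, 0.285 and 0.247 in vitro. It follows directly on nucleotide 30, a C that averaged 0.278 over the compartments in vivo and 0.0687 in vitro. The mean score over the 44 nucleotides in chromatin was 0.114 in vivo and 0.0429 in vitro. It was 0.0837 in vivo and 0.0545 in vitro in nucleoplasm, and 0.105 in vivo and 0.0642 in vitro in cytoplasm. The numbering rests on the transcript in the files being 6983 nt long, the same length as the RefSeq gene bounds.

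**Figure D1:**
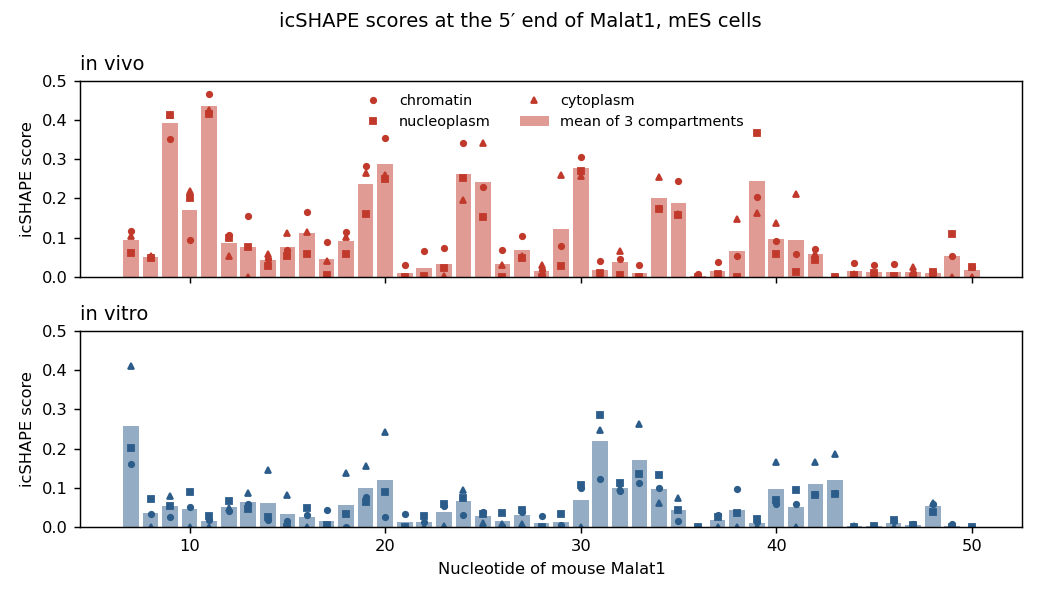
icSHAPE score (0 to 1) of nucleotides 7 to 50 of mouse Malat1 in vivo (top) and in vitro (bottom). Points are the 3 mES compartments and bars their mean. The in vivo bars reach 0.437 at nucleotide 11, where the in vitro bar is 0.015.

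The motif GGAG, a sequence bound by the zinc knuckles of Lin28 proteins, was searched on the RNA strand of the first 50 nucleotides of each gene with an entry in the RefSeq table. Malat1 and Tug1 had an entry. GGAG was absent from the start of Malat1 and from that of Tug1, and 34.5% of 32851 starts held it. GGACT, a sequence in which m6A is often written, was absent from both as well and present in 5.76% of the starts. A window of this length says nothing of the rest of these RNAs.

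Lin28A sites covered most of Malat1 in Mettl3 KO and in Mettl3 WT cells. The KO list held 9 sites and the WT list 9 sites on Malat1, and in each list they covered 6150 nt, or 88.1% of the 6983 nt of the gene. In the unit of the lists, 50-nt steps called bins here, that was 123 bins in each, of which 120 were covered in both. The 3 bins found in KO alone began at nucleotides 3173, 3623 and 4223, and the 3 found in WT alone began at nucleotides 4373, 4823 and 6023. All 6 lay past nucleotide 3172. Across the whole lists, 72.4% of KO bins and 74.9% of WT bins were shared.

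The site starting at nucleotide 23 ran to nucleotide 572 in both lists, with a score of 44.7 in KO and 51.5 in WT. The widest site began at nucleotide 723 in both, and it ran to nucleotide 3522 in KO (2800 nt, score 44.8) and to nucleotide 3172 in WT (2450 nt, score 57.4). The score is the authors' own value per site and is used here only to rank sites within a list. By that rank, 86.1% of KO sites lay below the widest KO site and 89.3% of WT sites below the widest WT site. The weakest Malat1 site in KO covered nucleotides 5323 to 5522 at a score of 21.8, and the weakest in WT covered nucleotides 3573 to 3622 at a score of 13, the lowest score in the WT list. The last site ended at nucleotide 6672 in both lists.

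Some stretches of Malat1 held no Lin28A site in either list. The longest was the 3′ end, nucleotides 6673 to 6983 (311 nt). Of this stretch, icSHAPE scored 269 nt in mES chromatin, 281 nt in nucleoplasm and only 22 nt in cytoplasm. Whether Malat1 RNA ran to the end of the bounds in the irCLIP cells was not tested. The next longest stretch was nucleotides 573 to 722 (150 nt), between the first 2 sites. Single bins were free of sites at nucleotides 3523 to 3572, 5273 to 5322, 5523 to 5572 and 6123 to 6172, as were the first 22 nt.

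**Figure D2:**
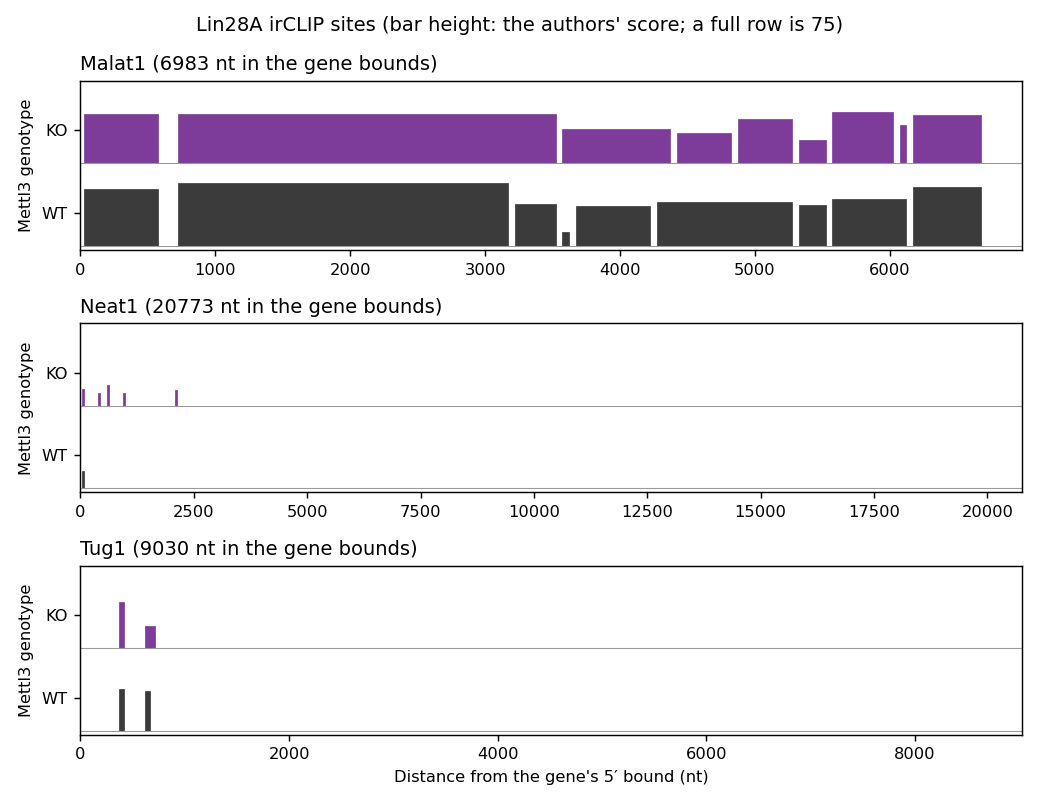
Lin28A sites along Malat1, Neat1 and Tug1 in Mettl3 KO (upper row of each panel) and Mettl3 WT mES cells (lower row), by distance from the 5′ bound in nt. Bar height is the authors' score. Malat1 is covered over 6150 nt in each list, while the Neat1 and Tug1 sites stand near the 5′ end.

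Malat1 had more Lin28A-covered nucleotides than any other gene to which sites were assigned, in either list. It ranked 1 of 4254 genes in KO and 1 of 4023 in WT, where the median gene had 50 nt covered in each list. The next gene was Gm33272, an lncRNA gene of RefSeq, with 3150 nt in KO and 3100 nt in WT. The glucose transporter gene Slc2a3 (2900 nt) and Hnrnpu (2650 nt), which codes for a nuclear RNA-binding protein, followed in KO. Canx, the gene of an endoplasmic reticulum chaperone, Fn1, that of fibronectin, and Trim28, that of a chromatin corepressor, each had 2600 nt in KO. In WT, the ubiquitin ligase gene Nedd4 (2800 nt), the translation factor gene Eif4g2 (2700 nt) and Trim28 (2650 nt) followed. Sites were assigned to genes by position on either strand, so those of the other genes can include antisense sites. Malat1 had 0 sites on the opposite strand in each list. Introns count towards gene length here, so the percent of a gene covered favours genes with few introns. By that measure Malat1 also ranked 1, among 3923 KO and 3753 WT genes of at least 1000 nt, whose median was 0.233% in KO and 0.231% in WT. Over the 198 lncRNA genes with a site, Malat1 held 31.3% of the covered nucleotides in KO and 31.7% in WT. Covered length was not adjusted for RNA amount, and whether these ranks follow that amount was not tested.

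Neat1 carried 5 Lin28A sites in Mettl3 KO and 1 in Mettl3 WT cells, covering 250 nt and 50 nt of its 20773 nt. The site common to both lists covered nucleotides 31 to 80 and had a score of 15 in KO and 16 in WT. The other 4 KO sites covered nucleotides 381 to 430 (score 12), 581 to 630 (score 19), 931 to 980 (score 12) and 2081 to 2130 (score 14). All lay in the first 2130 nt. Both sites with a score of 12 were at the lowest score of the KO list, which is below the lowest score of the WT list, 13. Against a median score of 19 in KO and 20 in WT, the site at nucleotide 581 in KO was the only Neat1 site to reach its list's median.

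Covered length past 1.5-fold higher in KO was common among genes: 26.1% of the 4839 genes with a site in either list were past it, and 19.2% were past 1.5-fold higher in WT. Neat1 was past it in KO. Among the 3438 genes with a site in both lists, which Neat1 belongs to, 13.0% were past 1.5-fold higher in KO and 9.98% past it in WT. By covered length Neat1 ranked 382 of 4254 in KO and 1606 of 4023 in WT. Malat1 had equal lengths in both lists, as did 2068 of the genes.

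Tug1 carried 2 Lin28A sites in KO and 2 in WT, and each overlapped a site of the other list. The first covered nucleotides 365 to 414 in both, with a score of 42 in KO and 38 in WT. The second began at nucleotide 615 in both and ran to 714 in KO (100 nt, score 20) and to 664 in WT (50 nt, score 36). Tug1 thus had 150 nt covered in KO and 100 nt in WT, which is at 1.5-fold and not past it. These sites lay within the first 714 of the 9030 nt of the gene. Tug1 ranked 657 in KO and 951 in WT by covered length.

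Malat1, Neat1 and Tug1 each had a site in both lists. Of 12 other nuclear lncRNAs, among them Xist, the RNA that coats the inactive X chromosome, 3 had a site, with 1 site in all in KO and 6 in WT. These were Lncenc1, an lncRNA of embryonic stem cells (1 site in KO and 2 in WT), and 2 imprinted RNAs of the same locus, Rian (0 in KO and 3 in WT) and Meg3 (0 in KO and 1 in WT). Of 14 lncRNAs that are cytoplasmic or hosts of small nucleolar RNAs, 13 had a site, with 42 sites in KO and 46 in WT. Counted in the same way, 462 of 12731 annotated lncRNA genes (3.63%), expressed or not, had a site. Gas5 had the most, 10 in KO and 11 in WT, and sites on such hosts can belong to the small RNAs within them. Sites over the 12 and the 14 lncRNAs were counted on either strand of the gene bounds. The difference between these lists was not tested, nor was whether the lncRNAs without a site were expressed in these cells.

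The mRNAs for proteins that share the nuclear bodies of Malat1 and Neat1 were also counted. Of 21900 annotated protein-coding genes, expressed or not, 4724 (21.6%) had a site. All 9 nuclear speckle mRNAs had sites, 88 in KO and 89 in WT, led by Srrm2, which codes for a scaffold of nuclear speckles (20 in KO and 20 in WT). Of 10 paraspeckle protein mRNAs, 9 had sites, 47 in KO and 50 in WT, led by Sfpq, the mRNA of a core paraspeckle protein (13 in KO and 12 in WT). Of 12 mRNAs of the m6A machinery, 5 had sites, 10 in KO and 5 in WT, with Ythdf1, which codes for a reader of m6A, at 4 in KO and 2 in WT. All 10 marker genes of mES cells had sites, 56 in KO and 46 in WT. Among them were Sox2 (11 in KO and 7 in WT) and Pou5f1 (7 in KO and 6 in WT). Pou5f1 had 700 nt covered in KO and 750 nt in WT. Sall4 went the other way in sites, with 2 in KO and 5 in WT. So did Lin28a (5 in KO and 6 in WT) and Dnmt3l (2 in KO and 3 in WT). Zfp42 (4 in each list) and Tdgf1 (7 in each list) had equal numbers. By covered length, 3 of these 10 genes were past 1.5-fold higher in KO and 1 in WT. Each of the 10 had a site in both lists. Among the 3438 genes with a site of their own in both lists, 13.0% were past it in KO and 9.98% in WT. Among the 4839 genes with a site of their own in either list, 26.1% and 19.2% were. Whether these lists differ from other expressed genes was not tested. Sites over these genes were counted on either strand of bounds that include introns.

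The abundance of Malat1 differed between the compartments of both cell lines. Each icSHAPE file gives an abundance value per transcript with no unit stated. Values are therefore compared for the same transcript between files, or by rank within a file. In vivo, mouse Malat1 had 811.7 (chromatin), 1029.9 (nucleoplasm) and 195.1 (cytoplasm) in mES cells, and in vitro it had 875.3, 1232.0 and 188.5 in the same order. In vivo, human MALAT1 had 200.4 (chromatin), 68.7 (nucleoplasm) and 16.8 (cytoplasm) in HEK293 cells, and in vitro it had 301.6, 115.9 and 13.5. The cytoplasm value was the lowest of the 3 under each probing in both cell lines. The nucleoplasm held the highest value in mES cells and chromatin the highest in HEK293 cells. The samples are bulk cultures, so the values are averages over cells. Whether they are scaled to amounts per cell is not stated, so they do not give the share of Malat1 in each compartment.

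The log2 ratio of abundance, with 1 added to each value, was 2.05 in vivo and 2.21 in vitro for chromatin over cytoplasm in mES cells, where the median transcript was at −1.25 in vivo and −1.34 in vitro. A ratio past 2-fold higher in chromatin was found for 9.68% of transcripts in vivo and 24.0% in vitro. For nucleoplasm over cytoplasm the ratio in mES cells was 2.39 in vivo and 2.70 in vitro, and 8.36% of transcripts in vivo and 8.70% in vitro were past 2-fold higher. In HEK293 cells, chromatin over cytoplasm gave 3.50 in vivo and 4.39 in vitro, with 20.8% of transcripts past 2-fold higher in vivo and 20.8% in vitro. Nucleoplasm over cytoplasm gave 1.97 in vivo and 3.01 in vitro, with 3.06% of transcripts past 2-fold higher in vivo and 2.20% in vitro. Malat1 was past 2-fold in all 8 of these ratios. Chromatin over nucleoplasm was −0.34 in vivo and −0.49 in vitro for mouse Malat1, neither past 2-fold, where 36.1% of transcripts in vivo and 32.6% in vitro were past 2-fold lower. For human MALAT1 it was 1.53 in vivo and 1.37 in vitro, both past 2-fold higher, as were 28.8% of transcripts in vivo and 46.7% in vitro.

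**Figure D3:**
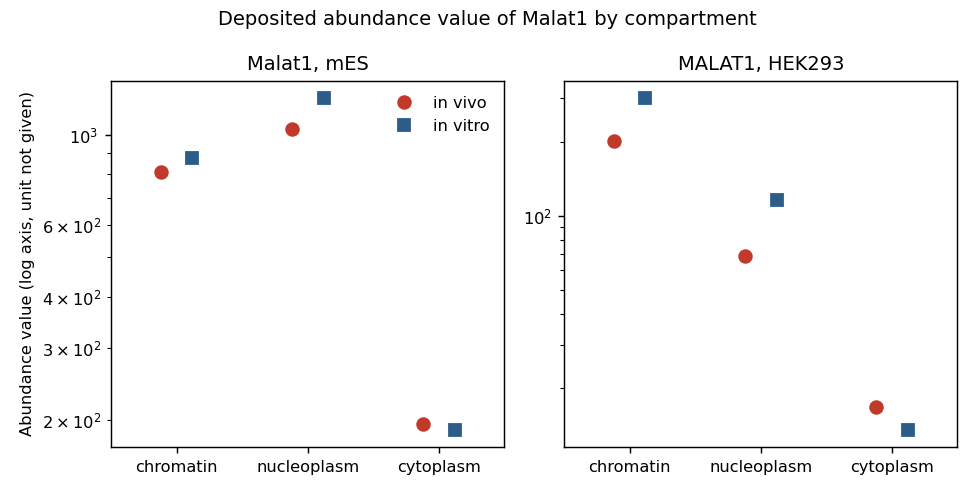
Deposited abundance value of Malat1 in mES cells (left) and HEK293 cells (right) by compartment, in vivo and in vitro, on a log axis in a unit that is not given. In both panels the cytoplasm points are the lowest, at 195.1 (in vivo) and 188.5 (in vitro) for mouse Malat1 and 16.8 (in vivo) and 13.5 (in vitro) for human MALAT1.

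Scores were present for nearly the whole of mouse Malat1 and for less of the human RNA. In mES cells 6935 nt were scored in chromatin, 6947 nt in nucleoplasm and 6674 nt in cytoplasm, the same number in vivo and in vitro. In HEK293 cells the scored stretch of MALAT1 ran from about nucleotide 1294 to nucleotide 8358 of 8708 in chromatin, with 7065 nt scored in vivo and 7062 nt in vitro. In nucleoplasm 7069 nt were scored under each probing. In cytoplasm only 3869 nt were scored in vivo and 3846 nt in vitro, so HEK293 cytoplasm covers a smaller set of nucleotides.

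Malat1 had a higher mean score than most transcripts in each mES file. Its mean score was 0.294 in vivo and 0.233 in vitro in chromatin, above that of 94.6% of transcripts in vivo and 97.6% in vitro. In nucleoplasm it was 0.234 in vivo and 0.233 in vitro, above 92.9% and 98.0% of transcripts. In cytoplasm it was 0.243 in vivo and 0.210 in vitro, above 86.5% and 91.5%. In HEK293 cells the mean was 0.270 in vivo and 0.227 in vitro in chromatin, 0.237 and 0.253 in nucleoplasm, and 0.198 and 0.241 in cytoplasm. The HEK293 cytoplasm in vivo value was the only one of the 12 below the median transcript, above 40.6% of transcripts, and the other HEK293 values were above 71.9% to 94.9%. Scores of exactly 0 made up 8.78% of Malat1 nucleotides in vivo and 17.7% in vitro in mES chromatin, against 22.2% and 43.2% at the median transcript. In HEK293 cytoplasm they made up 33.0% in vivo and 30.3% in vitro, against 34.7% and 26.2%. By abundance value, Malat1 was above 89.4% to 99.2% of transcripts in the mES files. In HEK293 cytoplasm it was above 16.9% in vivo and 57.9% in vitro. Whether the mean score follows abundance was not tested.

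Setting in vivo against in vitro scores asks how an RNA in the cell differs in structure from the same RNA refolded alone. Over nucleotides scored in both files of a pair, the ratio of the mean score in vivo to that in vitro was 1.26 in mES chromatin, 1.01 in mES nucleoplasm and 1.16 in mES cytoplasm. A difference was called where 1 mean was more than 25% above the other, and only mES chromatin was past it. In vivo means more than 25% higher were found for 38.8% of transcripts in mES chromatin, 16.8% in mES nucleoplasm and 41.9% in mES cytoplasm. In HEK293 cells the ratio was 1.19 in chromatin, 0.937 in nucleoplasm and 0.808 in cytoplasm, and none was past the 25% threshold. There, 13.4% of transcripts were past it with the higher mean in vivo in chromatin, and 22.9% in nucleoplasm and 25.7% in cytoplasm were past it with the higher mean in vitro. The median transcript had 1.16 in mES chromatin, 1.05 in mES nucleoplasm and 1.22 in mES cytoplasm. It had 0.897 in HEK293 chromatin, 0.932 in HEK293 nucleoplasm and 0.891 in HEK293 cytoplasm. The share of zeros moved with the score: in HEK293 nucleoplasm 31.7% of MALAT1 nucleotides were at 0 in vivo and 7.46% in vitro. With nucleotides at 0 left out, the HEK293 nucleoplasm ratio was 1.12, in the opposite direction, and the mES chromatin ratio was 1.20, no longer past the threshold. On ranks within the file the direction also turned in both cytoplasms, to 1.02 in HEK293 cells and 0.991 in mES cells, and the mES chromatin ratio was 1.01.

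Between compartments in vivo, mean Malat1 scores were highest in chromatin in both cell lines, except that HEK293 nucleoplasm was higher than chromatin over nucleotides above 0 (chromatin over nucleoplasm 0.934). In mES cells the ratio was 1.26 for chromatin over nucleoplasm, past the 25% threshold, as were 42.5% of transcripts. It was 1.22 for chromatin over cytoplasm (27.1% of transcripts past the threshold in that direction) and 0.971 for nucleoplasm over cytoplasm (11.7%). In HEK293 cells it was 1.14 for chromatin over nucleoplasm, where 19.3% of transcripts were past the threshold. It was 1.49 for chromatin over cytoplasm, past the threshold, as were 23.5% of transcripts. For nucleoplasm over cytoplasm in HEK293 cells it was 1.2538, just past the threshold, as were 11.0% of transcripts.

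In vitro no ratio of Malat1 between compartments was past the threshold, so 4 of the 18 comparisons were. In mES cells the in vitro ratio was 1.00 for chromatin over nucleoplasm, 1.12 for chromatin over cytoplasm and 1.12 for nucleoplasm over cytoplasm, where 3.28%, 8.07% and 9.45% of transcripts were past the threshold upwards. In HEK293 cells the in vitro ratio was 0.898 for chromatin over nucleoplasm and 0.958 for chromatin over cytoplasm, where 44.3% and 38.7% of transcripts were past it downwards. It was 1.07 for nucleoplasm over cytoplasm, where 11.2% were past it upwards. The comparisons within a cell line share files and are not independent.

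The profile of mouse Malat1 was much alike in the 3 compartments. Pearson's r across nucleotides in mES cells in vivo was 0.886 for chromatin and nucleoplasm, 0.874 for chromatin and cytoplasm and 0.867 for nucleoplasm and cytoplasm. The median transcript had 0.708, 0.733 and 0.697 in the same order. In vitro, r for mouse Malat1 was 0.935, 0.832 and 0.844. Between in vivo and in vitro it was lower, at 0.703 (chromatin), 0.683 (nucleoplasm) and 0.621 (cytoplasm). In HEK293 cells r between compartments in vivo was 0.548, 0.598 and 0.546, below the median transcript (0.761, 0.732 and 0.663). In vitro it was 0.882, 0.606 and 0.644, against 0.721, 0.570 and 0.649 for the median transcript, so the first 2 were above it. These correlations are across nucleotides of a single RNA, which share a transcript and a library and are not replicates.

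Along mouse Malat1, in vivo scores were higher than in vitro scores in most windows of chromatin and cytoplasm, but not of nucleoplasm. In windows of 100 nt, the in vivo mean was higher in 59 of 69 windows in chromatin, 34 of 70 in nucleoplasm and 47 of 67 in cytoplasm. Over whole transcripts, 66.7% had the higher mean in vivo in mES chromatin, 64.7% in mES nucleoplasm and 87.2% in mES cytoplasm. Windows of other transcripts were not counted. On ranks within the file, the in vivo over in vitro ratio of the whole RNA was 1.01 in chromatin. It was 0.998 in nucleoplasm and 0.991 in cytoplasm. Of 67 windows with values in all 6 files, 29 were higher in vivo in all 3 compartments and 9 were lower in all 3. The 5′ end, nucleotides 1 to 600, was higher in every window of every compartment. Its mean was 0.287 in vivo and 0.177 in vitro in chromatin, 0.219 in vivo and 0.147 in vitro in nucleoplasm, and 0.219 in vivo and 0.118 in vitro in cytoplasm. This stretch contains the first Lin28A site and the sequence printed above. Nucleotides 701 to 1200 followed the same pattern, at 0.272 in vivo and 0.199 in vitro in chromatin.

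The opposite was found at nucleotides 4601 to 4900, where the mean was 0.266 in vivo and 0.321 in vitro in chromatin, 0.225 in vivo and 0.345 in vitro in nucleoplasm, and 0.265 in vivo and 0.342 in vitro in cytoplasm. The window with the highest mean over the 6 files was nucleotides 6501 to 6600, at 0.393, and the next window, 6601 to 6700, had the lowest, at 0.105. Nucleotides 6401 to 6600 were higher in vivo, with 0.471 in vivo and 0.281 in vitro in chromatin, 0.352 in vivo and 0.307 in vitro in nucleoplasm, and 0.413 in vivo and 0.287 in vitro in cytoplasm. The last Lin28A site ended within the low window, at nucleotide 6672.

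**Figure D4:**
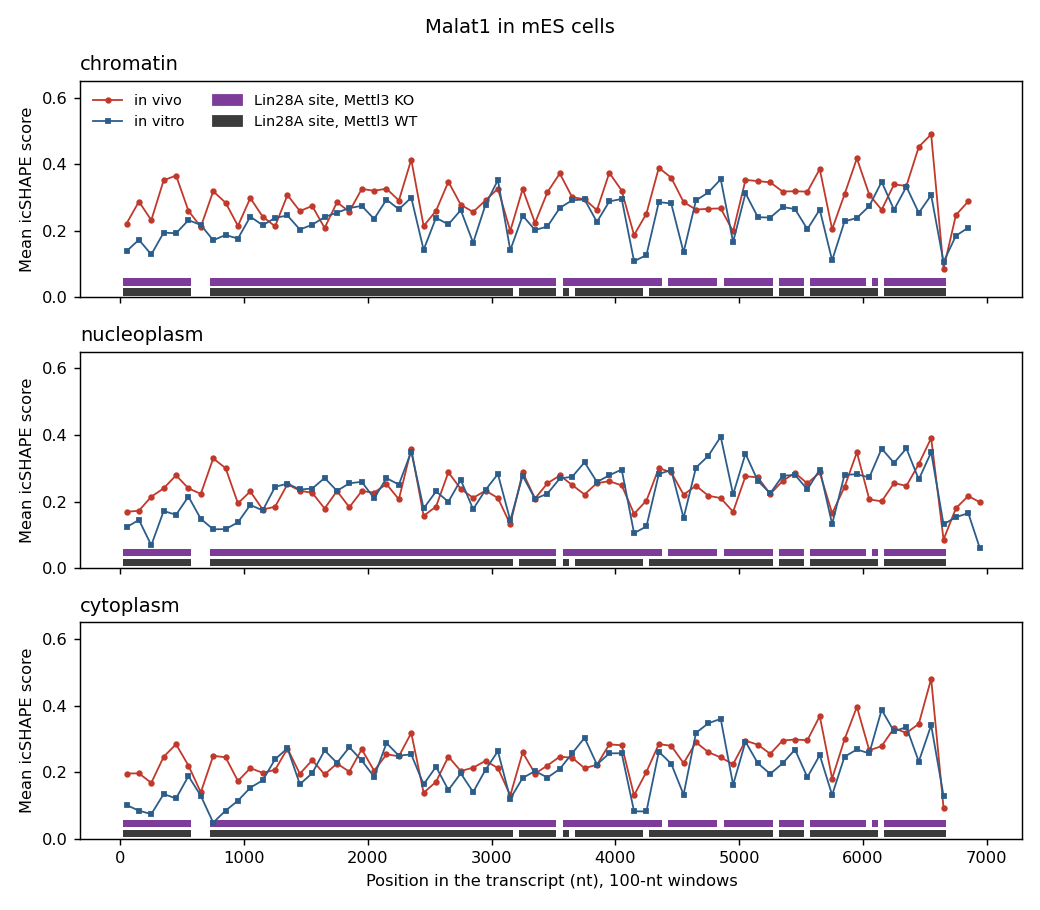
Mean icSHAPE score (0 to 1) of mouse Malat1 in 100-nt windows along the transcript, in vivo and in vitro, in chromatin, nucleoplasm and cytoplasm of mES cells. Strips mark Lin28A sites in Mettl3 KO (upper) and Mettl3 WT (lower) cells. The in vivo line lies above the in vitro line over nucleotides 1 to 600 and below it over nucleotides 4601 to 4900 in all 3 panels.

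The scores of Malat1 nucleotides inside and outside Lin28A sites were set side by side in each mES file. In chromatin in vivo the mean was 0.297 over 6000 nt covered in both lists and 0.265 over 635 nt covered in neither. Leaving out the transcript ends, the 350 nt of inner gaps averaged 0.299. In chromatin in vitro the means were 0.234 covered, 0.216 in neither and 0.266 in inner gaps. In nucleoplasm they were 0.236 covered, 0.217 in neither and 0.253 in inner gaps in vivo, and 0.236, 0.188 and 0.245 in the same order in vitro. In cytoplasm they were 0.244, 0.227 and 0.245 in vivo, and 0.209, 0.191 and 0.208 in vitro. Nucleotides in neither list, which include both ends of the transcript and the inner gaps, had the lowest mean of the 3 in all 6 files. In nucleoplasm in vitro the covered mean was just past 25% above it. There the site-free 3′ end, nucleotides 6673 to 6983, averaged 0.125 over 281 scored nt. The inner gaps alone averaged above the covered mean in every file except cytoplasm in vitro. The inner gaps differed among themselves. The gap at nucleotides 573 to 722 averaged 0.214 in vivo in chromatin, and that at nucleotides 5273 to 5322 averaged 0.385. The icSHAPE cells were not labelled with a Mettl3 genotype, and irCLIP was not made by compartment.

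In HEK293 cells the most reactive stretch of MALAT1 lay towards the 3′ end. The windows with the highest means over the chromatin and nucleoplasm files were nucleotides 7601 to 7700 (0.505), 7701 to 7800 (0.459) and 8201 to 8300 (0.442). The cytoplasm files were left out of these means. Over nucleotides 7301 to 8000 the mean was 0.429 in vivo and 0.269 in vitro in chromatin and 0.439 in vivo and 0.299 in vitro in nucleoplasm. In cytoplasm it was 0.259 in vivo and 0.323 in vitro, in the opposite direction. Nucleotides 5301 to 5700 were higher in vivo, with 0.367 in vivo and 0.244 in vitro in chromatin and 0.369 in vivo and 0.277 in vitro in nucleoplasm. Nucleotides 5701 to 6500 were lower in vivo, with 0.210 in vivo and 0.245 in vitro in chromatin and 0.149 in vivo and 0.247 in vitro in nucleoplasm.

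Over all windows, the in vivo mean of MALAT1 was higher in 48 of 71 in HEK293 chromatin, 23 of 71 in nucleoplasm and 15 of 38 in cytoplasm. The mean over the whole transcript was higher in vivo for 38.1% of transcripts in HEK293 chromatin, 37.6% in nucleoplasm and 28.5% in cytoplasm. In both nuclear fractions 21 windows were higher in vivo and 21 were lower. The nucleoplasm in vivo file had its lowest MALAT1 value at nucleotides 3401 to 3500, with 0.0506 in vivo and 0.24 in vitro, where chromatin had 0.271 in vivo and 0.19 in vitro. Mouse and human positions were not aligned to each other, since no sequence of the whole RNAs was at hand.

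**Figure D5:**
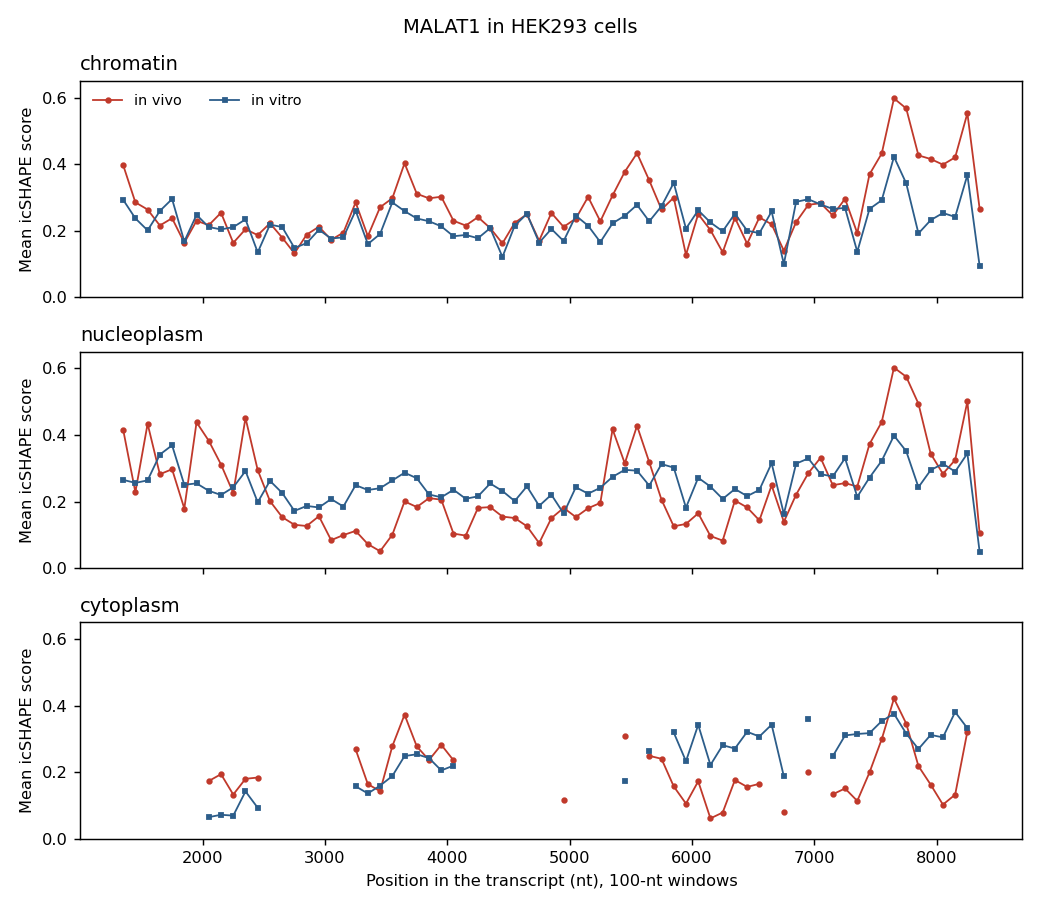
Mean icSHAPE score (0 to 1) of human MALAT1 in 100-nt windows along the transcript, in vivo and in vitro, in chromatin, nucleoplasm and cytoplasm of HEK293 cells; windows with fewer than 50 scored nucleotides are left blank. In chromatin and nucleoplasm the in vivo line stands above the in vitro line over nucleotides 7301 to 8000.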

How the data were processed

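The irCLIP lists deposited by the authors describe each site by position, strand, score and p-value; the p-value was at most 1.06102e-05 in KO and 1.00941e-05 in WT. The icSHAPE files deposited by the authors give, per transcript, an abundance signal in an unstated unit and a score per nucleotide from 0 to 1. The submitters' processing notes name Bowtie2, UMI-tools and the builds hg38 and mm10, without versions. The site caller, its control and any pooling are not given in the sources. Sites were placed on RefSeq gene bounds (GRCm38.p6), which give no exons, and a site over exactly 1 gene was assigned to it. Apart from the 3 members, genes were matched to sites without regard to strand. Mean scores used nucleotides scored in both files of a pair (at least 100 for other transcripts), and windows needed 50 scored nucleotides. Calls were set at 1.5-fold for covered length, a mean score more than 25% above the other and 2-fold for abundance. Named were the 3 members, the 5 genes with most covered nucleotides in each list and a few genes per gene list. The 2 transcripts per cell line nearest to Malat1 in abundance profile were named too. Members and lists were chosen with earlier results of these data known. Steps were tested on simulated data and run in Python 3.11.15 with NumPy 2.4.6, SciPy 1.17.1 and matplotlib 3.10.9.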

Additional observations from a re-analysis of the deposited data

How the results depend on the processing

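Of 36 Lin28A values recomputed under other settings, 27 equalled the value reported and 2 more stayed within 1.5 times it: with only sites at or above their list's median score, Malat1 had 8 sites (6100 nt) in WT. Of 108 score ratios, 95 kept their side of the 25% threshold, and all 18 abundance ratios kept theirs with a pseudocount of 0.1. All 6 percentages of windows higher in vivo stayed within 1.5 times with 200-nt windows. That of HEK293 cytoplasm went from 39.5% to 50%. Counted in 50-nt bins, Malat1 had 123 in KO and 123 in WT in place of 9 sites in each, and Tug1 had 3 in KO in place of 2. With the same sites, those at or above the median score, Neat1 had 1 site (50 nt) in KO and 0 sites (0 nt) in WT. The in vivo over in vitro ratio of mES chromatin was 1.01 on ranks within the file and 1.20 over nucleotides above 0. That of HEK293 chromatin was 1.28 over nucleotides scored in all 6 files, and that of HEK293 cytoplasm 0.799 over odd nucleotides, each past the threshold. In vivo, HEK293 chromatin over nucleoplasm was 1.26 on ranks, past the threshold, and HEK293 chromatin over cytoplasm 1.23 over nucleotides above 0. HEK293 nucleoplasm over cytoplasm was 1.20 over all scored nucleotides, 1.08 on ranks, 1.19 above 0 and 1.24 over even nucleotides. For mES chromatin over nucleoplasm it was 1.04 on ranks, 1.23 above 0 and 1.24 over odd nucleotides. For 10 of the 18 score ratios, 15 recomputed values fell on the other side of 1; none of the 10 was past the threshold as reported. On ranks, in vivo over in vitro was 1.02 in HEK293 cytoplasm and 0.991 in mES cytoplasm. In vitro on ranks, HEK293 chromatin over nucleoplasm was 1.08 and chromatin over cytoplasm 1.22, and in vivo mES nucleoplasm over cytoplasm was 1.04. Over nucleotides above 0, HEK293 nucleoplasm in vivo over in vitro was 1.12, HEK293 chromatin over nucleoplasm in vivo 0.934, and HEK293 nucleoplasm over cytoplasm in vitro 0.916. The other 7 lay between 0.986 and 1.00, for mES ratios reported as 1.01 and 1.00. The causes were not tested. Each group held 1 sample and the depth behind each file is unknown, so differences are between these files. No paired analysis was possible because each group held 1 sample and the labels give no replicate numbers.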

Other observations

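Some transcripts had an abundance profile over the 6 files of a cell line close to that of Malat1. Likeness was the Euclidean distance between profiles of log2(abundance + 1), each centred on its mean, among transcripts above 0 in all 6 files. In mES cells the nearest of 1442 transcripts were ENSMUST00000173314 (556 nt, distance 0.176) and ENSMUST00000174808 (656 nt, distance 0.368), where the median was 3.82. In HEK293 cells the nearest of 1258 were ENST00000508832 (1519 nt, distance 0.178) and ENST00000610851 (584 nt, distance 0.363), where the median was 5.64. The files do not pair these identifiers with gene names.

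In chromatin in vivo, the icSHAPE profiles of these transcripts also matched a stretch of Malat1. ENSMUST00000174808 matched from nucleotide 5721 with r = 0.863 across 559 nucleotides, where its next best position gave 0.251. ENSMUST00000173314 matched from nucleotide 5209 with r = 0.703 across 455 nucleotides, against 0.300 at the next best. In HEK293 cells, ENST00000508832 matched from nucleotide 4330 with r = 0.570 across 1479 nucleotides, against 0.254, and ENST00000610851 matched from nucleotide 6758 with r = 0.548 across 497 nucleotides, against 0.257. No transcript held a run of 60 scores identical to a run of Malat1. Whether these transcripts share sequence or reads with Malat1 was not tested.

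The score of coding transcripts can repeat every 3 nt, and the power of the profile at that period over that of neighbouring periods was 0.154 to 1.04 for Malat1 in the 12 files. Between 5.21% and 33.1% of transcripts in a file were above 5.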
